A study of Mus musculus with 12 samples.

Results

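The elastic fibre and its crosslinking were followed in whole mouse hearts through 10 genes: Eln, Fbn1, Fbn2, Mfap2, Mfap4, Mfap5, Fbln5, Lox, Loxl1 and Loxl2. A gene belonged to the set when a non-control probe of the array carried its symbol or an older synonym of it, and all 10 were represented among the 18258 genes tested. They had 15 probes, of which 13 passed the filter on dim probes. Where a gene had more than 1 passing probe, the brightest stood for it. The probe used for each of the 10 genes was well above background on all 12 arrays.

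Elastic fibres give arteries, valves and the walls of the heart their recoil. Tropoelastin, the product of Eln, is laid down on a scaffold of microfibrils, which are built of fibrillins (Fbn1, Fbn2) and carry the small glycoproteins encoded by Mfap2 and Mfap5. MFAP4 binds elastin and fibrillin, fibulin-5 (Fbln5) bridges tropoelastin to microfibrils and cells, and the copper-dependent lysyl oxidases (Lox, Loxl1, Loxl2) crosslink elastin and collagen. Most elastin is made around birth and in early growth, and it then turns over very slowly. In the heart these proteins are made mainly by fibroblasts, vascular smooth muscle and valve cells, not by cardiomyocytes.

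The hearts came from 12 male C57BL/6 mice, 3 per group: cardioGRMRdKO and dflox mice at 1 month, and cardioGRMRdKO and dflox mice at 2 months of age. All 4 groups carry floxed alleles of Nr3c1, which encodes the glucocorticoid receptor, and of Nr3c2, which encodes the mineralocorticoid receptor. In cardioGRMRdKO hearts, called knockout hearts here, Cre driven by the αMHC promoter recombines both genes in cardiomyocytes, while the dflox controls are male littermates without Cre. There was no group with Cre and unfloxed genes, so receptor loss and Cre are measured together, and the deleted exons are not named in the labels. Each array measured the RNA of 1 whole heart, in which fewer cells of a type and less RNA per cell cannot be told apart.

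Levels are log2 intensities relative to the array's own 75th percentile, so 0 is that percentile and a step of 1 is a doubling. Between 63.7% and 71.9% of transcript spots per array were well above background. The 10 cardiomyocyte markers averaged 6.41 to 7.01 in every heart, with 9 or 10 of them well above background, so the tissue label was borne out. The mean of 6.41, in knockout 2-month replicate 3, lacks the bright marker Actc1, which stood at 8.15 to 8.27 in the other hearts of that group. The brightest Nr3c1 probe differed by −0.73 at 1 month and −1.10 at 2 months between knockout and dflox hearts. At 1 month it had no value in dflox replicate 3 and knockout replicate 1. The other passing Nr3c1 probes differed by −0.68, −0.94 and −0.83 at 1 month and by −0.26, −0.84 and −0.74 at 2 months. The passing Nr3c2 probe differed by 0.06 and −0.46 (SE 0.496), so a lower Nr3c2 level was not shown. The 12 arrays lay on 3 slides of 4 places. The dflox hearts of 1 month lay on slides 1, 2 and 2, and those of 2 months on slides 1, 3 and 3. Age and slide were thus partly tied in dflox, where only slide 1 held both ages. In knockout hearts every slide held both ages. Among the 1-month hearts the dflox arrays all lay at outer places and the knockout arrays all at inner ones, so at that age genotype and place cannot be told apart. Markers of airway epithelium differed widely between hearts, as described with the genotype comparison.

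The sequences that bear on the measurements are of 2 kinds. The first are promoter stretches, shown because Fbn1 and Mfap2 were lower at 2 months while Fbln5 showed little difference. They come from RefSeq (GRCm38.p6), from which entries of 3 of the 10 genes were used. Only bases upstream of the annotated gene start are printed. Capitals mark every match, on either strand, to any of 5 motifs searched: the GC box GGGCGG, the glucocorticoid response element half-site AGAACA, the CAGA box of SMAD factors CAGACA, the AP-1 site TGANTCA and the TATA box TATAAA. The 3 stretches are Fbn1 at chr2:125506486-125506688 (minus strand), Mfap2 at chr4:141010174-141010423 (plus strand) and Fbln5 at chr12:101819120-101819369 (minus strand).
Fbn1: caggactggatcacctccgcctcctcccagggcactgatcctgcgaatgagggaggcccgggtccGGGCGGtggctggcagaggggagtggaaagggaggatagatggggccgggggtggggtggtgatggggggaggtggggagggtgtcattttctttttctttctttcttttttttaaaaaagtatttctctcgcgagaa
Mfap2: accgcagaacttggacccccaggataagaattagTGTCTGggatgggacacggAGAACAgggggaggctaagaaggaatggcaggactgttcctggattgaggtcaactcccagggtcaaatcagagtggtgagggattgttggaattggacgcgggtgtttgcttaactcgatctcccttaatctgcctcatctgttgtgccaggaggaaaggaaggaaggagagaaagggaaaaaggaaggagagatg
Fbln5: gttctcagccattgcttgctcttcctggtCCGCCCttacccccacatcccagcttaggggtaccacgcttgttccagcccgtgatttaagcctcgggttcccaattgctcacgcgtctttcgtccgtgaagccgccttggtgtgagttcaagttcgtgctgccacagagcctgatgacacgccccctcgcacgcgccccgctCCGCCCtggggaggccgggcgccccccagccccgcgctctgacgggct
The Fbn1 stretch held 1 GC box and the Fbln5 stretch 2, and neither held one of the other motifs. The Mfap2 stretch held 1 half-site and 1 CAGA box, the latter as TGTCTG on the printed strand. Mfap2 and Fbln5 each had 1 further promoter window, which begins past the gene's annotated start and is not printed: that of Mfap2 held 2 GC boxes and none of the other motifs, and that of Fbln5 held 1 CAGA box and none of the others. Among all 32851 promoter windows of 300 bases, 35.7% held a GC box, 19% the half-site, 21% the CAGA box, 7.81% the AP-1 site and 13.6% a TATA box, so each match is a common one and describes letters only.

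The second kind are the 60-base probes that did the measuring, of which 3 are shown: the Loxl1 probe, because that gene stands apart from Loxl2 below, and the dimmer probes of Loxl2 and Mfap2, because they repeat the measurement of the 2 genes with the firmest age difference. On mouse build mm7 they lie at chr9:58319258-58319317 (Loxl1, minus strand), chr14:64336628-64336687 (Loxl2, plus strand) and chr4:140392631-140392690 (Mfap2, plus strand). Exon and UTR annotation of that build was not used here.
Loxl1 probe: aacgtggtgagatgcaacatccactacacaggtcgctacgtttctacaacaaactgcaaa
Loxl2 dimmer probe: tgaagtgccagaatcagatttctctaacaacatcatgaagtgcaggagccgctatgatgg
Mfap2 dimmer probe: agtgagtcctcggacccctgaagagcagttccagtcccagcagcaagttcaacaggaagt

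The first question was how the 10 genes differ between 1 and 2 months in hearts with both receptors. In dflox hearts 6 of them fell: elastin itself, the microfibril genes Fbn1, Mfap2, Mfap4 and Mfap5, and the crosslinking enzyme gene Loxl2. Their folds ran from 1.89 for Fbn1 to 3.97 for Eln. Fbln5, Lox, Loxl1 and Fbn2 did not pass the test, and 0 of the 10 rose. Of all 18258 genes, 0.246% fell by the same rule (45 genes, with 56 rising, or 98 and 61 after quantile normalization).

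In knockout hearts the same comparison called 2 of the 10, Mfap2 and Loxl2, both lower at 2 months, against 0.186% of all genes called lower. The means of all 10 were lower at 2 months in knockout hearts, and those of 9 of 10 in dflox hearts, Fbln5 being the exception. The median log2 difference over the 10 was −0.996 in dflox and −0.75 in knockout hearts, beside 0.05 and −0.02 over all genes tested. All 3 hearts of 2 months lay below all 3 of 1 month for 8 of the 10 genes in dflox (all but Fbln5 and Lox) and for 6 of 10 in knockout hearts (Eln, Fbn1, Mfap2, Mfap4, Mfap5 and Loxl2). Among all genes with values in every heart compared, 8.62% and 10.8% were separated in that direction.

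**Figure D1:**
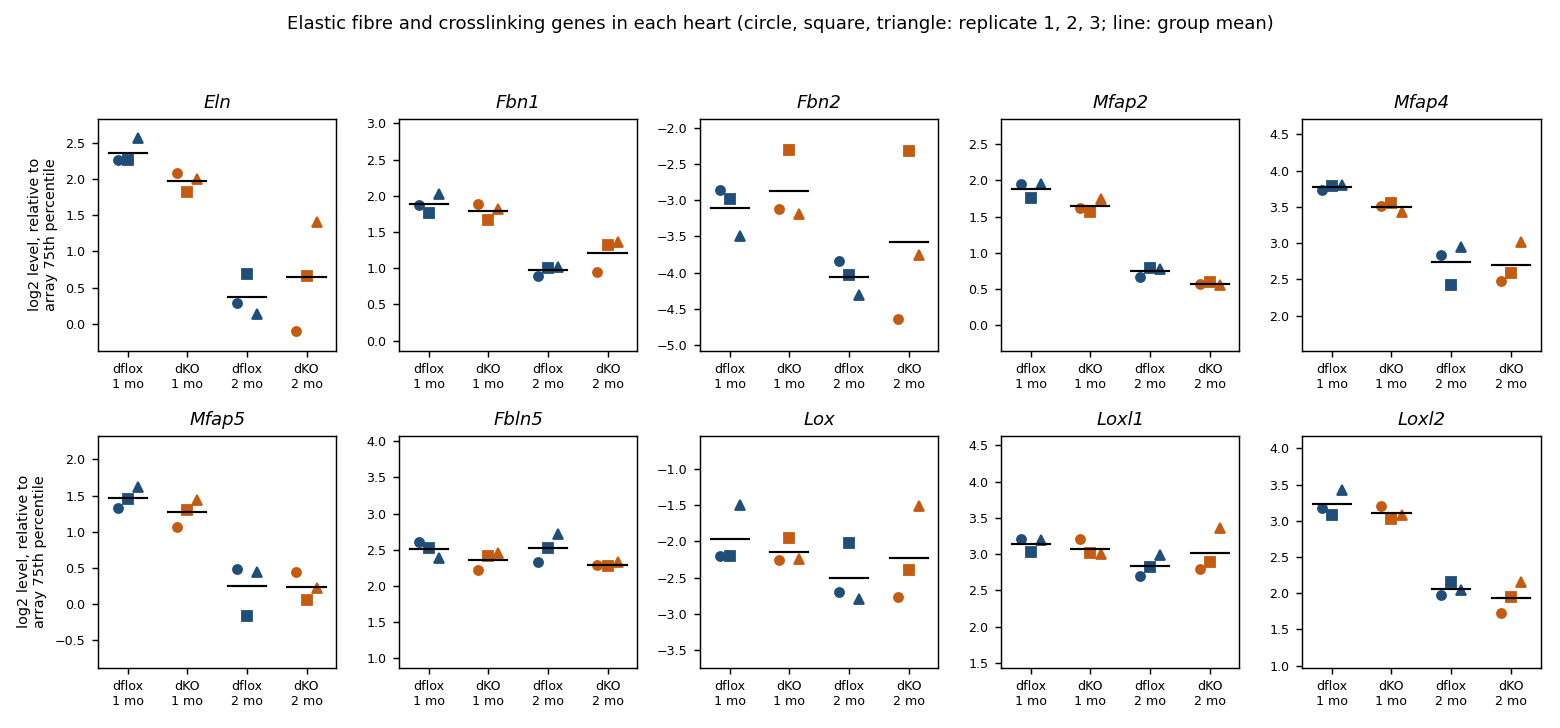
Log2 level of each gene relative to the array's 75th percentile (y axis, same span in every panel) in the 12 hearts, by group (x axis; dKO, cardioGRMRdKO; mo, months). Points are hearts and lines group means. For Eln, Fbn1, Mfap2, Mfap4, Mfap5 and Loxl2 the hearts of 2 months lie below those of 1 month in both genotypes, a difference called for all 6 in dflox and for Mfap2 and Loxl2 in knockout hearts. Fbln5 lies between 2.22 and 2.72.

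Eln, which encodes tropoelastin, had the largest age difference of the set. Its level was 2.26, 2.26 and 2.56 in the dflox hearts of 1 month (replicates 1, 2 and 3) and 0.29, 0.69 and 0.13 in those of 2 months. It was 2.08, 1.83 and 1.99 in the knockout hearts of 1 month and −0.10, 0.65 and 1.40 in those of 2 months. The ages did not overlap in either genotype, and knockout 2-month replicate 3 was the highest of all 2-month hearts and replicate 1 the lowest. In dflox the fall was 3.97-fold (log2 difference −1.99, SE 0.311, n = 3 and 3, limma adjusted p = 0.026). In knockout hearts the difference was −1.32, with the same SE, and did not pass the test (adjusted p = 0.115). Within slides, where the only comparison is 1 heart against 1, it was −1.97 in dflox (slide 1) and −0.42, −2.10 and −1.43 in knockout (slides 1, 2 and 3). Without knockout 2-month replicate 3 the knockout difference was −1.69 and passed the test (adjusted p = 0.0446).

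Fbn1 encodes fibrillin-1, the main fibrillin of microfibrils after birth. Its level was 1.88, 1.77 and 2.03 in dflox hearts of 1 month against 0.90, 1.01 and 1.02 at 2 months. Knockout hearts had 1.89, 1.67 and 1.82 against 0.95, 1.32 and 1.36. Every 2-month heart lay below every 1-month heart, and the dflox hearts of 2 months varied the least. The fall in dflox was 1.89-fold (−0.92, SE 0.129, adjusted p = 0.0184). The knockout difference of −0.58 did not pass the test (adjusted p = 0.0985).

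Fbn1 had a second passing probe, which was dimmer. It gave −0.88 in dflox (SE 0.219) and −0.33 in knockout hearts (SE 0.219), so the probes were close in dflox and differed more in knockout hearts. With the mean of both probes standing for the gene, the dflox difference no longer passed the test.

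Fbn2 encodes fibrillin-2, the fibrillin of developing microfibrils, and was dim, at −2.31 to −4.64 over all hearts. In dflox hearts it was −2.86, −2.98 and −3.49 at 1 month against −3.84, −4.04 and −4.31 at 2 months, with no overlap. In knockout hearts it was −3.13, −2.31 and −3.19 against −4.64, −2.33 and −3.76, and the ages overlapped through replicate 2. The differences were −0.95 and −0.70 with an SE of 0.487, and neither passed the test (adjusted p = 0.413 and 0.645).

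Mfap2 encodes MAGP-1, a glycoprotein of microfibrils, and had the smallest spread among replicates relative to its age difference. It was at 1.95, 1.75 and 1.95 in dflox hearts of 1 month against 0.67, 0.79 and 0.78 at 2 months. Knockout hearts stood at 1.62, 1.57 and 1.75 against 0.57, 0.59 and 0.55. Hearts of 2 months thus ran from 0.55 to 0.79 and those of 1 month from 1.57 to 1.95, with a wide gap between. It fell 2.20-fold in dflox (−1.14, SE 0.0956, adjusted p = 0.0034) and 2.10-fold in knockout hearts (−1.07, adjusted p = 0.00276). The dimmer probe printed above gave −1.04 and −1.01 (SE 0.281). Mfap2 passed the test in both genotypes under each of the 10 alternative settings and in each of the 12 fits that left out 1 heart. Among these settings, the series matrix values hold the same signal as the main fit and add no check.

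Mfap4, whose protein binds elastin and fibrillin, was at 3.74, 3.78 and 3.81 in dflox hearts of 1 month and 2.83, 2.43 and 2.94 at 2 months. In knockout hearts it was at 3.52, 3.55 and 3.43 against 2.48, 2.59 and 3.01. The ages did not overlap, and the hearts of 2 months varied more than those of 1 month in both genotypes. It fell 2.06-fold in dflox (−1.04, SE 0.161, adjusted p = 0.0246), while the knockout difference of −0.80 did not pass the test (adjusted p = 0.0744).

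Mfap5 encodes MAGP-2, the other small microfibril glycoprotein of this set. It was at 1.33, 1.46 and 1.61 in dflox hearts of 1 month against 0.48, −0.17 and 0.45 at 2 months, and at 1.07, 1.31 and 1.43 against 0.44, 0.06 and 0.23 in knockout hearts. Again no heart of 2 months reached the lowest of 1 month. The dflox fall was 2.32-fold (−1.21, SE 0.186, adjusted p = 0.0246). The knockout difference of −1.03 missed the threshold (adjusted p = 0.057) and passed it with slide as a term in the fit (adjusted p = 0.0427).

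Fbln5, which links tropoelastin to microfibrils during assembly, showed the smallest age difference in dflox hearts. It was at 2.61, 2.52 and 2.38 in dflox hearts of 1 month and 2.33, 2.53 and 2.72 at 2 months, so the range at 1 month lay inside that at 2 months. Knockout hearts stood at 2.22, 2.42 and 2.46 against 2.29, 2.27 and 2.33. The differences were 0.02 in dflox (95% interval −0.25 to 0.29) and −0.07 in knockout hearts (−0.34 to 0.20). A difference as large as that of Mfap2 lies outside both intervals. Its other 2 probes were well above background on 2 and 0 arrays and did not pass the filter.

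Among the crosslinking enzymes Loxl2 alone was called with age, and no test compared the enzymes with each other. Loxl2, which oxidises lysines of collagen IV and of other matrix proteins, was at 3.18, 3.07 and 3.42 in dflox hearts of 1 month against 1.98, 2.16 and 2.04 at 2 months. In knockout hearts it was at 3.20, 3.03 and 3.08 against 1.72, 1.94 and 2.15. Hearts of 2 months ran from 1.72 to 2.16 and those of 1 month from 3.03 to 3.42. It fell 2.24-fold in dflox (−1.17, SE 0.133, adjusted p = 0.0115) and 2.25-fold in knockout hearts (−1.17, adjusted p = 0.00749). The dimmer Loxl2 probe printed above gave −0.97 and −0.86 (SE 0.183).

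Lox, the founding lysyl oxidase, was dim and scattered, at −2.20, −2.20 and −1.49 in dflox hearts of 1 month and −2.70, −2.02 and −2.80 at 2 months. Knockout hearts stood at −2.26, −1.95 and −2.25 against −2.77, −2.40 and −1.51. The ages overlapped in both genotypes, and replicate 3 of dflox at 1 month, replicate 2 of dflox at 2 months and replicate 3 of knockout at 2 months stood well above the other hearts of their groups. The differences of −0.54 and −0.07 (SE 0.331) did not pass the test (adjusted p = 0.487 and 0.975), and their intervals, −1.28 to 0.20 and −0.81 to 0.67, include differences as large as that of Fbn1 in knockout hearts.

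Loxl1, the family member tied most closely to elastin, was at 3.21, 3.03 and 3.20 in dflox hearts of 1 month and 2.70, 2.82 and 2.99 at 2 months. These ages did not overlap, yet the difference was small (−0.31, SE 0.153, adjusted p = 0.401). In knockout hearts it was at 3.20, 3.01 and 3.00 against 2.79, 2.88 and 3.36, with replicate 3 of 2 months above every other heart of the study. The knockout difference was −0.06 (95% interval −0.40 to 0.28), so a fall of the size seen for Loxl2 lies outside the interval.

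**Figure D2:**
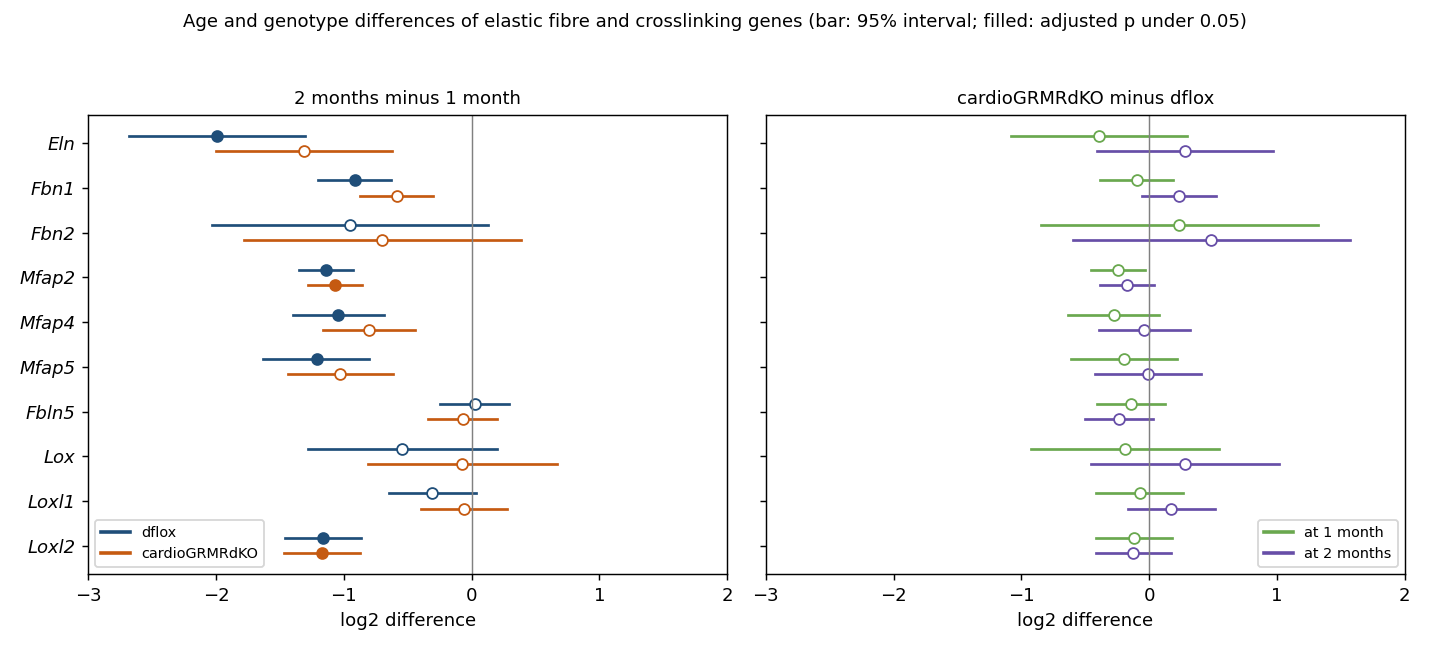
Log2 differences (x axis) of the 10 genes (y axis), at left 2 months minus 1 month in dflox and cardioGRMRdKO hearts, at right cardioGRMRdKO minus dflox at 1 and 2 months. Points are limma estimates, bars their 95% intervals, and filled points have an adjusted p under 0.05. At left 6 dflox and 2 knockout points are filled; at right none is.

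**Figure D3:**
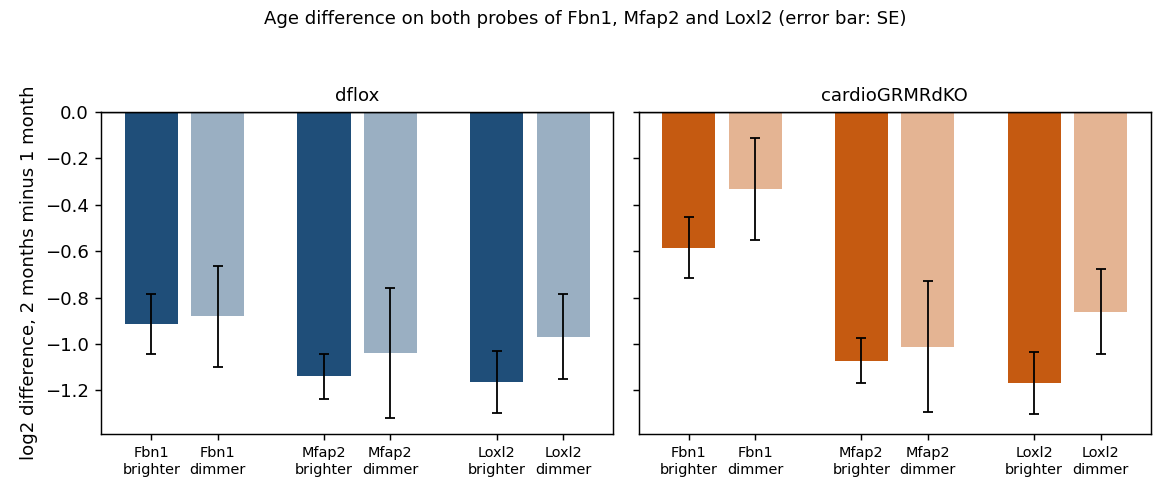
Log2 difference between 2 months and 1 month (y axis, bars from 0, error bars SE) on the brighter and the dimmer passing probe of Fbn1, Mfap2 and Loxl2 (x axis), in dflox and cardioGRMRdKO hearts. All 12 bars lie below 0, from −0.33 for the dimmer Fbn1 probe in knockout hearts to −1.17 for the brighter Loxl2 probe.

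The count of 6 in dflox depended on which hearts and terms entered the fit. It ran from 1 to 3 when any 1 of the 6 dflox hearts was left out, and was 5 or 6 without any 1 knockout heart. Without dflox 1-month replicate 1, Mfap2 alone passed. With slide as a term Mfap2 alone passed, although the estimates stayed at −2.20 for Eln, −1.04 for Fbn1, −1.06 for Mfap4, −0.94 for Mfap5 and −1.26 for Loxl2. With place as a term, or without the filter on dim probes, Loxl2 and Mfap2 passed. The count of 2 in knockout hearts was 1 (Mfap2) without 1-month replicate 1 or without 1-month replicate 3. It was 3 without 2-month replicate 3, where Eln joined, and 3 without dflox 2-month replicate 2, where Mfap5 joined. Mfap5 also joined, again giving 3, with slide as a term and with probes well above background on all arrays. With slide as a term the counts were thus 1 in dflox and 3 in knockout hearts. For Eln, Fbn1, Fbn2, Mfap2, Mfap4, Mfap5 and Loxl2 the age difference was negative in both genotypes in each of these fits.

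The next question was whether the genotypes differ. Elastin, microfibril and crosslinking genes alike gave 0 calls out of 10 at either age, where 0.98% (1 month) and 2.31% (2 months) of all genes were called. With the ages averaged they also gave 0 of 10, beside 4.5% of all genes. At 1 month the knockout mean was below the dflox mean for 9 of the 10, Fbn2 being the exception, with a median difference of −0.16 beside 0.00 over all genes. At 2 months 5 of the 10 were lower, with a median of 0.08 beside −0.10 over all genes.

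At 1 month the genotypes did not overlap for Eln, Mfap2 and Mfap4, each lower in knockout hearts, a separation that 9.66% of all genes showed. The differences were −0.39 for Eln (SE 0.311, adjusted p = 0.889), −0.24 for Mfap2 (SE 0.0956, 0.427) and −0.28 for Mfap4 (SE 0.161, 0.731). On slides 1 and 2, which held both genotypes, they were −0.43 and −0.42 for Eln, −0.39 and −0.11 for Mfap2, and −0.19 and −0.37 for Mfap4. With place as a term in the fit, the Eln difference turned to 0.23. As place and genotype coincide at 1 month, that term was estimated from the hearts of 2 months alone. It therefore does not check the 1-month difference for place. None of these separations carried a call.

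At 2 months Mfap2 and Fbln5 did not overlap between genotypes, both lower in knockout hearts, as in 11% of all genes. Mfap2 differed by −0.17 (adjusted p = 0.394) and Fbln5 by −0.23 (95% interval −0.50 to 0.03, adjusted p = 0.37). On slides 1 and 3, which held both genotypes, Fbln5 differed by −0.01 and −0.36. Eln differed by 0.28, with an interval of −0.41 to 0.97 that spans a fall and a near doubling. On the same slides Eln differed by 1.11 and 0.24, and without knockout 2-month replicate 3 its difference was −0.10. The dimmer Fbn1 probe gave 0.58 at 2 months (SE 0.219) where the brighter gave 0.23 (SE 0.129).

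Whether the age difference itself depends on genotype was tested as the difference between both age effects. It was called for 0 of the 10 genes and for 0% of all genes by limma, with 644 genes at an unadjusted p under 0.05 and none of the 10 among them. The largest was that of Eln, at 0.68 (95% interval −0.30 to 1.65, adjusted p = 0.934), the smaller age difference being in knockout hearts. For Loxl2 it was 0.00 (−0.42 to 0.42) and for Mfap2 0.07 (−0.23 to 0.37). So the larger number of calls in dflox hearts is not shown to be a difference between the genotypes, and the interval for Eln reaches 1.65.

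Markers of other cells were read beside these genes. The 11 fibroblast markers were well above background in every heart. Their mean level was 3.77 to 3.99 in dflox hearts of 1 month, 3.60 to 3.73 in knockout hearts of 1 month, 3.31 to 3.47 in dflox hearts of 2 months and 3.17 to 3.35 in knockout hearts of 2 months, so the ages did not overlap. All 11 had negative age differences in dflox (median −0.42) and 10 of 11 in knockout hearts (median −0.44). The 2 that fell in dflox were collagen genes, Col1a1 (−1.23, adjusted p = 0.0131) and Col1a2 (−0.75, adjusted p = 0.0274), and Col1a1 also fell in knockout hearts (−1.08, adjusted p = 0.0274). The other 9 were called in neither genotype. They include the receptor gene Pdgfra, at −0.16 and 0.12, and the periostin gene Postn, at −0.61 and −0.67. They also include a further collagen gene, Col3a1. Its levels in dflox hearts were 5.99 to 6.84 at 1 month and 4.90 to 5.49 at 2 months, without overlap. These genes were chosen after their values were seen. The part of this shift in the fall of the 6 genes was not tested.

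The 10 smooth muscle and pericyte markers averaged 3.79 to 4.02 in dflox hearts of 1 month and 3.72 to 3.96 at 2 months, and 3.67 to 3.79 against 3.64 to 3.93 in knockout hearts, so the ages overlapped in both. None of the 10 was called with age.

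Airway epithelium markers, which mark tissue outside the heart, were also present. All 12 had a passing probe, and in 10 of the 12 genes the signal was well above background in every heart. Their mean level was 0.86 to 2.04 in dflox hearts of 1 month and −3.86 to −2.25 in knockout hearts of 1 month. At 2 months it was −1.88, −3.78 and 2.38 in dflox hearts and 1.97, −4.05 and 2.06 in knockout hearts. Thus the knockout hearts of 1 month were all below the dflox hearts, as they were for Eln, Mfap2 and Mfap4. The same held for the fibroblast means given above, with all 11 markers lower (median −0.23), and for the 8 epicardium markers, all lower, with means of −1.29 to −0.70 in knockout and −0.48 to −0.39 in dflox hearts. It also held for cardiomyocyte means (6.73 to 6.88 against 6.92 to 7.01) and endothelium means (2.52 to 2.61 against 2.65 to 2.74). Macrophage means separated the other way, at 1.36 to 1.44 in knockout and 1.04 to 1.24 in dflox hearts. Smooth muscle and pericyte means overlapped only narrowly, at 3.67 to 3.79 in knockout and 3.79 to 4.02 in dflox hearts of 1 month. Of these 10 markers 6 were lower in knockout hearts, without a call (differences −0.85 to 0.44, median −0.11). Means of the remaining marker lists overlapped, apart from cartilage below. The part of any of these in the separation of Eln, Mfap2 and Mfap4 was not tested. With age the median of the 12 markers differed by −2.82 in dflox and 3.19 in knockout hearts, without a call. Dflox 2-month replicate 3, the highest heart for these markers, was the lowest dflox heart for Eln. Knockout 2-month replicates 1 and 3, at 1.97 and 2.06, were the lowest and the highest 2-month hearts for Eln. These hearts were picked after their values were seen. The part of airway tissue in the levels of single hearts was not tested.

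Cartilage markers, of which Matn1 was well above background in no heart, followed a like order at 1 month. Their mean was −2.70 to −2.16 in dflox and −3.61 to −3.13 in knockout hearts. At 2 months it was −3.50 to −2.64 and −3.46 to −2.40, highest in knockout replicate 3, the heart that was also highest for Eln, Lox and Loxl1 at that age. All 9 tested cartilage markers had negative age differences in dflox hearts (median −1.03), of which Col11a2 passed the test (−1.10, adjusted p = 0.0184). In knockout hearts 4 of 9 were negative (median 0.25). The part of cartilage in the levels of single hearts was not tested.

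**Figure D4:**
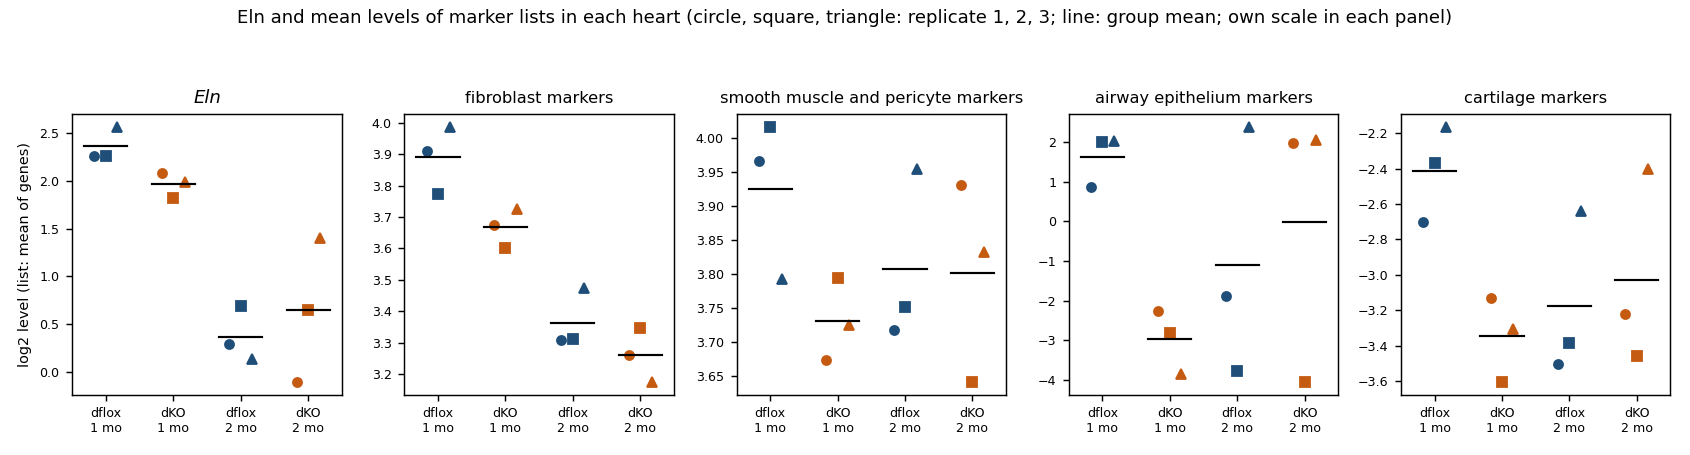
Log2 level of Eln and mean log2 level of 4 marker lists (y axes, own scale in each panel) in the 12 hearts by group (x axis; dKO, cardioGRMRdKO; mo, months); points are hearts and lines group means. Fibroblast markers are lower in all hearts of 2 months than in all of 1 month, as Eln is, while airway markers run from −4.05 to 2.38 without following age.

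The rest of the pathway was read from a list of 45 genes, of which 40 were tested. In dflox hearts 1 of the 40 fell with age and 0 rose, in knockout hearts 1 fell and 0 rose, beside 0.246% and 0.186% of all genes called lower. Negative differences were found in 35 and 25 of the 40 (medians −0.20 and −0.06) and in 42.3% and 54.2% of all genes. Adamtsl2, whose product binds fibrillin-1 and latent TGF-β binding proteins, fell in dflox (−0.95, SE 0.129, adjusted p = 0.0172). At 2 months it was the 1 of the 40 called between genotypes, higher in knockout hearts (0.81, adjusted p = 0.0095), beside 2.31% of all genes. With the ages averaged 1 of the 40 was called higher and 1 lower, beside 4.5% of all genes. The difference between age effects was called for 0 of the 40. Emilin2, an elastin-interface glycoprotein gene, fell in knockout hearts (−0.66, SE 0.111, adjusted p = 0.0423) and differed by −0.52 in dflox (adjusted p = 0.068). At 1 month 1 of the 40 was called, beside 0.98% of all genes: Adamtsl4, a fibrillin-binding ADAMTS-like gene, which was lower in knockout hearts (−0.48, SE 0.0935, adjusted p = 0.0448).

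None of the other fibulins was called with age. Fbln1 differed by −0.21 in dflox and 0.18 in knockout hearts, Fbln2 by −0.42 and −0.22, Efemp2 (fibulin-4, which recruits lysyl oxidase) by −0.27 and −0.28. Efemp1 (fibulin-3) had positive differences, 0.42 and 0.55. Fbln1 at 1 month was lower in each knockout heart than in each dflox heart, by 0.62 on average, without passing the test (adjusted p = 0.125).

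Among the latent TGF-β binding proteins, which dock on microfibrils, Ltbp2 differed with age by −0.38 in dflox and 0.17 in knockout hearts and Ltbp4 by −0.18 and −0.06. The ligand gene Tgfb2 differed by −0.48 and −0.41, and Emilin1 by −0.40 and 0.03. Of the other crosslinking genes, Loxl3 differed by −0.12 and 0.01, and Atp7a, the copper pump that loads lysyl oxidases, by −0.19 and −0.22. None of these 6 passed the test at an adjusted p of 0.05.

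Genes whose level followed that of Eln most closely were looked for among the 17782 genes with a value in every heart. The 5 with the highest Pearson correlation over the 12 hearts, apart from the set itself, were Col4a2 (r = 0.97), Adamts12 (0.95), C1qtnf6 (0.94), Adamts3 (0.94) and Col5a2 (0.93), with Spearman coefficients of 0.91, 0.85, 0.97, 0.91 and 0.88. Within the set, r with Eln was 0.97 for Fbn1, 0.95 for Loxl2, 0.91 for Mfap4, 0.90 for Mfap2, 0.82 for Mfap5, 0.71 for Loxl1, 0.67 for Lox, 0.60 for Fbn2 and 0.03 for Fbln5. The hearts fall into separate age groups for Eln and share arrays and scaling, so these values describe likeness and carry no test. With each group's mean removed, r with Eln over the 12 deviations was 0.87 for Loxl2, 0.86 for Lox, 0.79 for Fbn1 and 0.70 for Loxl1. It was 0.37 for Mfap4, 0.22 for Fbn2, 0.11 for Mfap2, −0.14 for Fbln5 and −0.43 for Mfap5. The 3 knockout hearts of 2 months were then left out, after the values were seen. Without them r was 0.78 for Loxl2, 0.77 for Lox, 0.59 for Fbn1 and 0.05 for Loxl1. It was −0.75 for Mfap4, −0.40 for Fbn2, 0.39 for Mfap2, −0.48 for Fbln5 and −0.57 for Mfap5. Of these, Loxl1 moved to near 0, and Mfap4 and Fbn2 changed sign.

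These 5 genes were picked for following Eln over hearts that split by age for Eln, so their age differences follow from the choice and are given as a description. In dflox and knockout hearts they were −0.67 and −0.45 for Col4a2, a basement membrane collagen chain, and −1.52 and −1.45 for Adamts12, a metalloprotease gene. C1qtnf6, a secreted C1q and TNF related protein gene, differed by −1.47 and −1.49. Adamts3, a procollagen protease gene, differed by −0.84 and −0.63, and Col5a2, a fibrillar collagen V chain, by −0.87 and −0.58.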

How the data were processed

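RNA of 12 whole hearts was measured on Agilent 1-colour mouse arrays, 1 heart per array. Per the labels, total RNA was column-purified with DNase treatment and labelled with Cy3. Agilent Feature Extraction was used by the authors to read the scans (version 9.5 per the submitters' processing notes, 9.5.3.1 per the file headers). The processed signal in the deposited scanner files is a linear intensity after background subtraction. It was not scaled between arrays, and it equals the value in the deposited matrix for 100% of spots. The number of hearts limits the precision.

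Control and outlier spots were left out, intensities were taken to log2, each array's 75th percentile was subtracted and spots of a probe were averaged. Of 41174 probes, 26979 passed the filter: well above background in all 3 hearts of some group. They stood for 18258 genes, each by its brightest probe. limma 3.58.1 (R 4.3.3) fitted 4 group means to all 12 arrays, with 8 residual and 2.22 prior degrees of freedom. Tests were two-sided moderated tests with Benjamini-Hochberg adjustment over all genes, called at 0.05. With 3 hearts a group, the smallest exact permutation p is 0.1. The fit was checked on simulated data. Errors are limma's SE. Figures were drawn with matplotlib (Python).

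Named were all 10 genes of the set, the called genes of a pathway list, 10 pathway genes whatever their values, and the 5 genes most like Eln. The set and the lists were chosen with earlier results of these data known. Replicate numbers are shared between groups but were not taken to pair the hearts. Deviations of hearts with the same number correlated at −0.49 to 0.55 (median −0.0103). Those of hearts with different numbers, from different groups, correlated at −0.48 to 0.44 (median −0.0088). Alternatives were quantile normalization, normexp background correction with an offset of 50, series matrix values, 2 other probe filters, outlier spots kept, the mean of all probes, slide or place as a term, a replicate block, and leaving out each heart.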

Additional observations from a re-analysis of the deposited data

How the results depend on the processing

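The sign of the age difference in dflox hearts held for 9 of the 10 genes in every alternative run. Fbln5 was the exception, at −0.0080 with quantile normalization, −0.21 with normexp and −0.074 to 0.12 when 1 heart was left out. In knockout hearts it turned only when 1 heart was left out, for Lox (−0.43 to 0.20) and Loxl1 (−0.23 to 0.050). The dflox count of 6 became 5 with normexp and with the mean of all probes, where Fbn1 was lost, 2 without a filter on dim probes, 1 with slide and 2 with place as a term, and 1 to 6 without 1 heart. The knockout count of 2 was 3 with slide as a term and with probes well above background on all arrays, and 1 to 3 without 1 heart. A replicate block, for numbers not taken to pair the hearts, left the counts at 6 and 2.

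Over all genes, the dflox age comparison called 159 with quantile normalization (61 higher, 98 lower, against 56 and 45), 58 with normexp, 17 unfiltered, 175 for probes well above background on all arrays, 10 with slide, 28 with place and 3 to 147 without 1 heart. The knockout age comparison called 69, and 34 with normexp, 13 unfiltered, 16 with place, 31 with the replicate block and 4 to 62 without 1 heart. Genotype at 1 month called 109 with normexp, 91 unfiltered, 9 with place and 83 to 232 without 1 heart. At 2 months normexp called 247 (159 lower, against 221 of 422), no filter 243, and fits without 1 heart 240 to 389. Averaged, normexp called 489 (295 lower, against 410 of 821), no filter 518, place 257, and fits without 1 heart 508 to 802. The difference between age effects called 1 gene with place.

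None of the genotype differences that turned had passed the test. With place as a term the 1-month differences became 0.23 for Eln, 0.072 for Fbn1, 0.030 for Fbln5, 0.50 for Lox, 0.29 for Loxl1, 0.10 for Loxl2 and −0.072 for Fbn2, which was −0.067 with slide as a term. The place term was estimated from the hearts of 2 months alone, so these values do not check the 1-month differences for place. At 2 months Mfap4 was 0.063 with quantile normalization and 0.017 with place, Mfap5 0.0035 with quantile normalization and 0.0059 with outlier spots kept, and Loxl2 0.019 with normexp. Averaged, Eln was 0.035 with normexp and 0.36 with place, and Loxl2 0.026 with place. Without 1 heart the 1-month ranges were −0.049 to 0.39 for Fbn2 and −0.31 to 0.048 for Lox. The 2-month ranges were −0.095 to 0.66 for Eln, −0.14 to 1.02 for Fbn2, −0.20 to 0.069 for Mfap4, −0.077 to 0.55 for Lox and −0.22 to 0.10 for Mfap5. Averaged they were −0.24 to 0.13 for Eln, −0.13 to 0.18 for Lox and −0.036 to 0.10 for Loxl1.

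The difference between age effects of Loxl2, −0.0039, was 0.058 with quantile normalization, 0.19 with normexp, 0.012 with outlier spots kept, 0.053 with the mean of all probes, 0.091 with slide and −0.11 to 0.10 without 1 heart. With normexp it was −0.060 for Fbn2, −0.12 for Mfap2 and 0.16 for Fbln5, and with slide −0.089 for Mfap5. Without 1 heart it was −0.37 to 0.78 for Fbn2, −0.19 to 0.0039 for Fbln5 and −0.025 to 0.30 for Mfap5. The causes were not tested. With 3 hearts a group, differences smaller than the reach of the printed intervals to either side could not be told from 0. Larger ones could still miss the adjusted threshold, as the age difference of Mfap5 did in knockout hearts (−1.03, SE 0.186).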
